A study of Mus musculus with 16 samples.

Results

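The comparison described here is the diet by time interaction in mouse thyroid RNA, which asks whether the effect of high-fat food given together with sucrose in the drinking water (HF+SD) was the same after 6 weeks as after 3 weeks. All 16 libraries of the series enter it, 1 library per mouse, and no sample was left out. The mice were wild-type male C57Bl/6J animals placed on their diets at 8 weeks of age, and they formed 4 groups of 4. The control diet (CD) mice of 3 weeks were M53, M54, M55 and M96, and the HF+SD mice of 3 weeks were M7, M19y, M20y and M31. For 6 weeks, M22, M43, M45 and M48 received the CD while M5, M18, M34 and M35 received the HF+SD. Control mice ate chow, and the whole gland was taken, so each library holds every cell type that was dissected with it. The 3-week and the 6-week libraries were numbered under separate projects, so project and time cannot be told apart. For that reason levels were not compared between time points, and the interaction was read as a difference between diet effects that were each measured inside 1 project. Labels name each mouse but do not say how mice were housed or which litters they came from.

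Thyroid follicular cells take iodide from the blood, attach it to thyroglobulin that they secrete into the follicle lumen, and later digest the iodinated protein to release thyroid hormone. Thyrotropin (TSH) drives each of these steps through a receptor that couples to stimulatory G proteins, adenylyl cyclase and cAMP, and it also drives growth of the gland and of its capillary network. Secretory follicular cells carry a large endoplasmic reticulum (ER), whose chaperones fold thyroglobulin.

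The tissue label was checked against its markers. Tg, which encodes thyroglobulin, took 26.77% to 29.74% of the counts of the libraries of 3 weeks. At 6 weeks it took 4.725% to 11.31% for CD and 9.526% to 13.63% for HF+SD. The follicular cell factors Pax8 and Nkx2-1 averaged at least 200.2 CPM in every group, where CPM is the count relative to the library's size after edgeR's trimmed-mean scaling (TMM). Library totals ran from 30025256 to 48508653 counts. Transcripts of the skeletal muscle list took 4.044%, 17.07% and 12.29% of the counts in the CD mice M43, M45 and M48 of 6 weeks, and 0.1093% in the fourth, M22. They took 0.132% to 0.4746% for HF+SD at 6 weeks, and 0.002982% to 0.01178% in all libraries of 3 weeks. The widest 95% Wilson interval of these shares spanned 0.0225 percentage points, which covers counting error only. The plot of library shares shows that 3 of the 4 CD libraries of 6 weeks stand apart from all others. The called genes, the named genes and the list medians were therefore fitted again with the muscle score of each library as an added term, called the muscle covariate, and once more without those 3 libraries. Without them M22 is the only CD mouse of 6 weeks, and it is assumed to vary like the mice of the other groups.

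**Figure D1:**
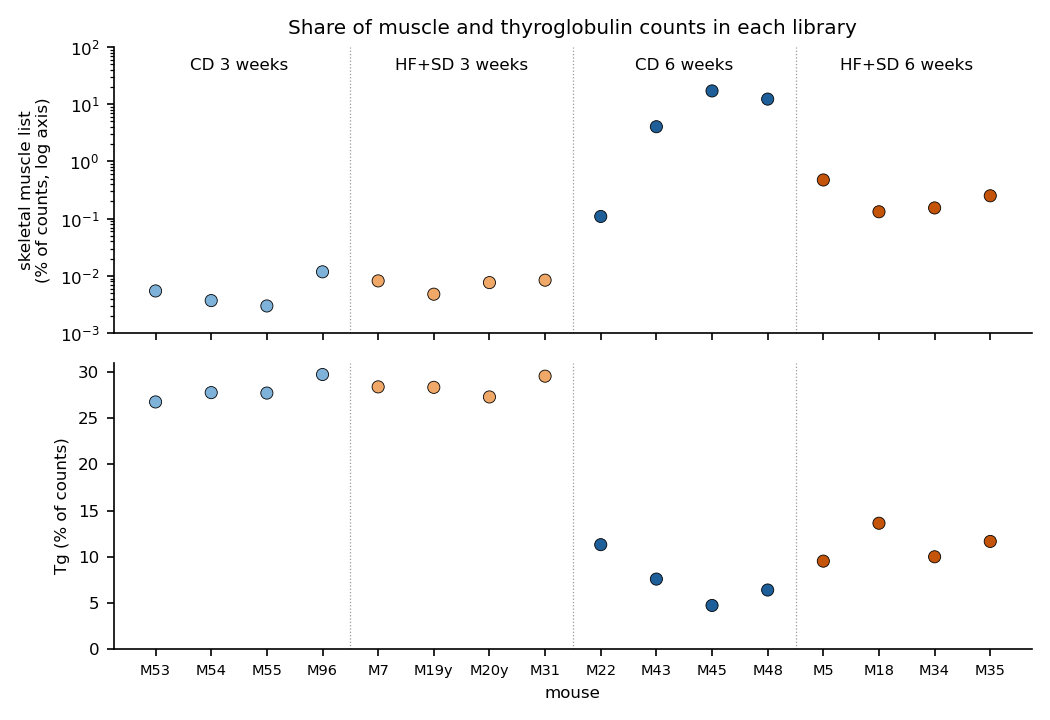
Percent of counts on the skeletal muscle list (upper panel, log axis) and on Tg (lower panel, axis from 0) in each of the 16 libraries, 1 point per mouse, coloured by diet and week. M43, M45 and M48 lie at 4.044% or more for muscle while every other library lies at 0.4746% or less.

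Of 18929 tested genes, 15 passed edgeR's quasi-likelihood test of the interaction at a Benjamini-Hochberg adjusted p under 0.05, which is 0.0792%. The HF+SD to CD ratio was higher at 6 weeks for 13 of them (0.0687%) and lower for 2 (0.0106%). At an unadjusted p under 0.05 there were 4217 genes (22.3%), 1770 of them higher (9.35%) and 2447 lower (12.9%). The effect of diet itself was called for 1420 genes (7.5%) at 3 weeks and for 6182 genes (32.7%) at 6 weeks in the same fit. The median size of a diet effect was 0.24 at 3 weeks and 0.38 at 6 weeks on the log2 scale, and the median standard error of an interaction was 0.30. By the same fit, the interaction was above 0 in 45.7% of all tested genes. The count of calls rested on single mice, with 2715 genes called without M22, 1285 without M43 and 1 without M7 or without M20y. With the muscle covariate, 2 genes were called (0.0106%), Gnai2 higher and Pvalb lower (0.00528% each), and 2056 had an unadjusted p under 0.05 (10.9%), 5.38% of tested genes higher and 5.48% lower.

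**Figure D2:**
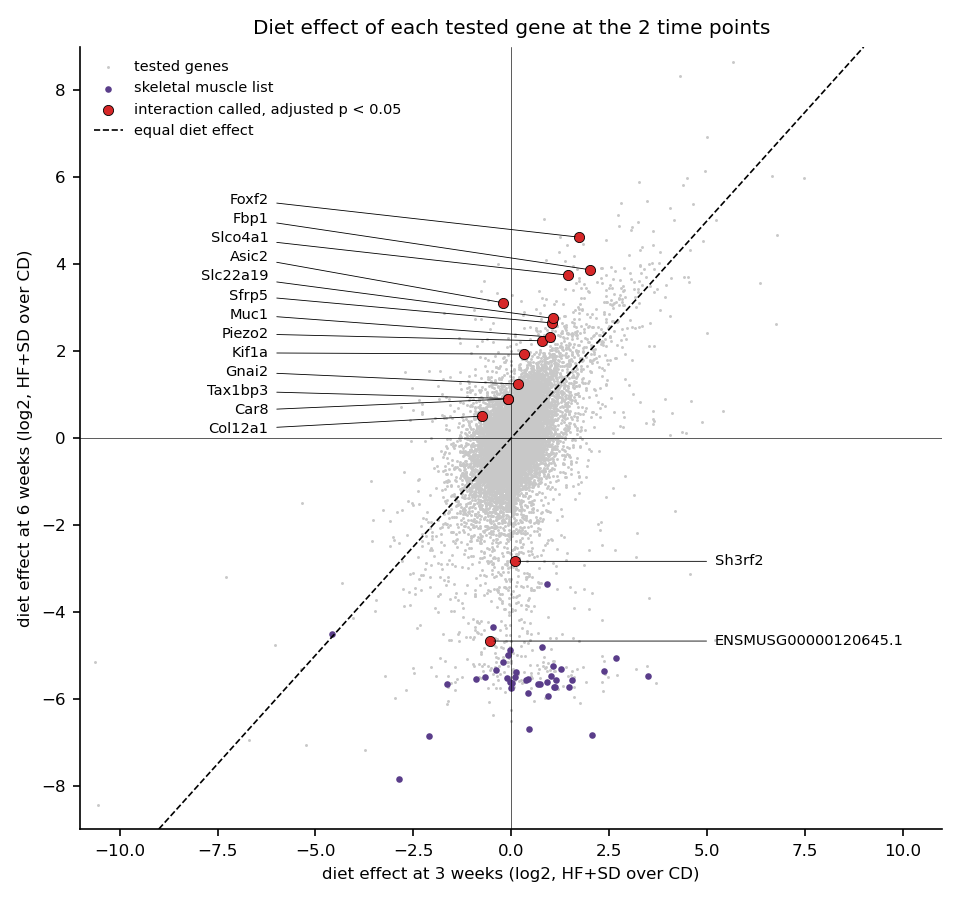
Log2 diet effect (HF+SD over CD) of every tested gene at 3 weeks (x axis) and at 6 weeks (y axis), with the 15 called genes in red, the skeletal muscle list in purple and a dashed line where both effects are equal. The 13 genes with a higher ratio at 6 weeks lie above the line, and most muscle genes lie near -5.55 on the y axis.

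The 15 called genes fall into 3 classes by their diet effects at each time point. Col12a1 was called in opposite directions, 7 genes were called higher at both times with a larger effect at 6 weeks, and 7 were called at 6 weeks only, 5 of them higher and 2 lower. Only Gnai2 and Col12a1 were singled out by the rule for naming genes, and the other 13 are named because they complete the list of calls, a choice made after their values were seen. The same holds for the genes named from the lists below, apart from Tg, Slc5a5, Tshr, Duox2, Dio1, Adm2, Ramp3 and the 3 lowest muscle genes.

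Gnai2 (ENSMUSG00000032562.14) had the lowest p of all genes. It encodes an inhibitory G protein alpha subunit, which lowers adenylyl cyclase activity. At 3 weeks it measured 193, 197, 200.0 and 189.7 CPM in the CD mice and 210.2, 205, 216 and 244 CPM in the HF+SD mice, in the order of mice given above. The 6-week values were 45.2, 40.98, 40.5 and 44.6 CPM for CD and 98.6, 107, 99.1 and 101 CPM for HF+SD. The HF+SD mice lay above the CD mice at both times, narrowly at 3 weeks and by a wide gap at 6 weeks, and M22 lay with the other CD mice. The ratio of the diets was 1.12 at 3 weeks (log2 0.17, SE 0.083, adjusted p = 0.259) and 2.37 at 6 weeks (log2 1.24, SE 0.085, adjusted p = 3.1e-07). The interaction was 1.08 (SE 0.118, adjusted p = 0.00228, edgeR's quasi-likelihood test). With the muscle covariate it was 1.01 (adjusted p = 0.0408), and without the 3 CD libraries 1.01 (adjusted p = 0.0795). It was called in all 16 fits that left out 1 mouse.

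Col12a1 (ENSMUSG00000032332.18), which encodes a collagen that lies on the surface of collagen I fibrils, was the only one of the 15 called genes with called diet effects in opposite directions. The CD mice of 3 weeks had 50.2, 57.05, 67.6 and 64.7 CPM and the HF+SD mice 32.6, 33.6, 36.1 and 41.4 CPM. At 6 weeks the values were 22.96, 23.6, 23.6 and 18.1 CPM for CD and, for HF+SD, 34.9, 30.9, 29.6 and 29.7 CPM. All HF+SD mice lay below all CD mice at 3 weeks and above all of them at 6 weeks. Col12a1 fell with the HF+SD at 3 weeks (log2 -0.74, SE 0.12, adjusted p = 0.00131) and rose at 6 weeks (log2 0.50, SE 0.12, adjusted p = 0.00501). The interaction was 1.24 (SE 0.171, adjusted p = 0.0140, edgeR), and 13 of 16 fits without 1 mouse called it.

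Kif1a, Asic2, Tax1bp3 and Car8 were, like Gnai2, called higher by diet at 6 weeks and not called at 3 weeks. Kif1a encodes a kinesin that carries dense-core and synaptic vesicles along microtubules. Its CPM were 14.7, 13.2, 15.5 and 15.2 for CD and 18.4, 18.4, 15.8 and 20.1 for HF+SD at 3 weeks, then 8.69, 6.28, 5.16 and 6.48 and 23.03, 19.5, 25.7 and 33.3 at 6 weeks. The groups of 3 weeks lay next to each other without overlap, and those of 6 weeks were widely apart. The log2 diet effect was 0.31 (SE 0.17) and 1.93 (SE 0.17), and the interaction was 1.62 (SE 0.239, adjusted p = 0.0241, edgeR).

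Car8, a catalytically inactive member of the carbonic anhydrase family that binds the inositol trisphosphate receptor, had 18.2, 16.8, 16.4 and 14.7 CPM for CD and 13.4, 15.7, 18.02 and 15.05 CPM for HF+SD at 3 weeks, and the groups overlapped. After 6 weeks it had 14.03, 16.4, 13.3 and 11.8 CPM and 26.8, 26.04, 26.95 and 23.6 CPM, with every HF+SD mouse above every CD mouse. Its interaction was 0.98 (SE 0.1696, adjusted p = 0.0438, edgeR). Tax1bp3, a small PDZ domain protein, overlapped between diets at 3 weeks (30.003 to 37.2 CPM for CD, 29.7 to 34.1 for HF+SD). At 6 weeks it did not (15.99 to 22.2 and 33.5 to 42.6 CPM), and its interaction was 0.98 (SE 0.169, adjusted p = 0.0438, edgeR). Asic2, an acid-sensing sodium channel subunit, rests on few counts. They were 11, 9, 22 and 7 for CD and 12, 8, 12 and 12 for HF+SD at 3 weeks, and 7, 10, 3 and 9 and 46, 39, 83 and 88 at 6 weeks. The interaction was 3.32 (SE 0.565, adjusted p = 0.0438, edgeR), and 4 of 16 fits without 1 mouse called it.

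Genes called higher at both times, with a larger ratio at 6 weeks, were Foxf2, Piezo2, Sfrp5, Slco4a1, Muc1, Slc22a19 and Fbp1. In each of them all HF+SD mice lay above all CD mice at both times. Foxf2 encodes a forkhead transcription factor of mesenchymal cells and brain pericytes. It measured 3.79, 2.96, 2.696 and 1.61 CPM for CD and 7.37, 11.6, 8.68 and 9.32 CPM for HF+SD at 3 weeks, then 1.17, 0.593, 0.688 and 0.443 and 16.1, 15.2, 18.3 and 21.8 CPM at 6 weeks. The ratio of the diets was 3.34 at 3 weeks and 24.6 at 6 weeks. Its interaction was 2.88 (SE 0.392, adjusted p = 0.0140, edgeR), the largest of the 13 higher calls after that of Asic2, and 14 of 16 fits without 1 mouse called it.

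Fbp1, fructose bisphosphatase of gluconeogenesis, had the highest CPM of these genes for HF+SD of 6 weeks. Its CPM were 30.1, 34.2, 32.1 and 20.4 for CD and 108, 116, 127 and 119 for HF+SD at 3 weeks, and 18.1, 22.8, 9.29 and 12.9 and 210.3, 258, 276 and 182 at 6 weeks. The ratio went from 4.03 to 14.7, and the interaction was 1.86 (SE 0.325, adjusted p = 0.0448, edgeR). With the muscle covariate the value was 1.32.

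Piezo2, a mechanically gated cation channel of sensory neurons and other touch-sensing cells, had 11.7, 11.4, 13.2 and 11.8 CPM for CD and 17.6, 20.2, 21.9 and 23.5 for HF+SD at 3 weeks. At 6 weeks it had 5.97, 5.296, 3.29 and 5.18 and 21.2, 21.4, 24.003 and 26.7 CPM. The interaction was 1.45 (SE 0.221, adjusted p = 0.0291, edgeR). Sfrp5 encodes a secreted Wnt antagonist. It measured 24.02, 22.8, 27.1 and 23.2 CPM for CD and 42.7, 42.5, 53.8 and 61.2 for HF+SD at 3 weeks, and 6.54, 6.42, 6.17 and 8.56 and 28.2, 54.6, 39.05 and 51.96 CPM at 6 weeks. At 6 weeks the HF+SD mice spread more widely than the CD mice, with M5 lowest, and the interaction was 1.61 (SE 0.265, adjusted p = 0.0438, edgeR).

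Slco4a1, an organic anion transporter that carries thyroid hormone among other substrates, had 0.962, 1.74, 2.42 and 2.201 CPM for CD and 4.27, 4.84, 3.88 and 6.98 for HF+SD at 3 weeks, and 1.63, 1.35, 0.782 and 1.301 and 14.9, 20.03, 16.8 and 16.8 CPM at 6 weeks. The gap between the groups was 2.73-fold and then 13.4-fold, and the interaction was 2.30 (SE 0.384, adjusted p = 0.0438, edgeR). Slc22a19, an organic anion transporter from a cluster of closely related mouse genes between which reads could be split, had 3.37 to 4.95 CPM for HF+SD at 3 weeks and 11.4 to 16.4 at 6 weeks. Its CD mice ranged from 1.23 to 2.64 and from 1.85 to 2.17 CPM, and the interaction was 1.70 (SE 0.293, adjusted p = 0.0438, edgeR). Muc1, a mucin of the apical surface of epithelia, ranged from 5.19 to 8.601 CPM for CD and 13.6 to 15.9 for HF+SD at 3 weeks, and from 2.58 to 3.57 and 12.6 to 16.5 CPM at 6 weeks. Its interaction was 1.34 (SE 0.2296, adjusted p = 0.0438, edgeR).

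Both genes with a lower ratio at 6 weeks were called at 6 weeks only. Sh3rf2, which encodes a RING domain protein with SH3 domains, had 2.94, 3.602, 1.81 and 4.25 CPM for CD and 2.84, 3.45, 3.32 and 3.76 for HF+SD at 3 weeks, with overlap. The 6-week values were 4.397, 8.75, 18.3 and 16.4 CPM for CD, in M22, M43, M45 and M48, and 1.196, 1.95, 1.81 and 1.73 for HF+SD. The 3 CD libraries with most muscle counts were the 3 highest for Sh3rf2, and M22 was still above every HF+SD mouse. The interaction was -2.93 (SE 0.513, adjusted p = 0.0451, edgeR), -1.59 with the muscle covariate and -1.47 without the 3 CD libraries, where its unadjusted p was 0.00483. The part of muscle RNA in this result was not tested. ENSMUSG00000120645.1, an identifier without a symbol in the name table used, had 26, 45, 36 and 54 counts for CD and 2, 1, 0 and 3 counts for HF+SD at 6 weeks. At 3 weeks the counts were 10, 6, 5 and 11 for CD and 7, 5, 7 and 3 for HF+SD. Its interaction of -4.12 (SE 0.712, adjusted p = 0.0438, edgeR) thus rests on a group with at most 3 counts per library.

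**Figure D3:**
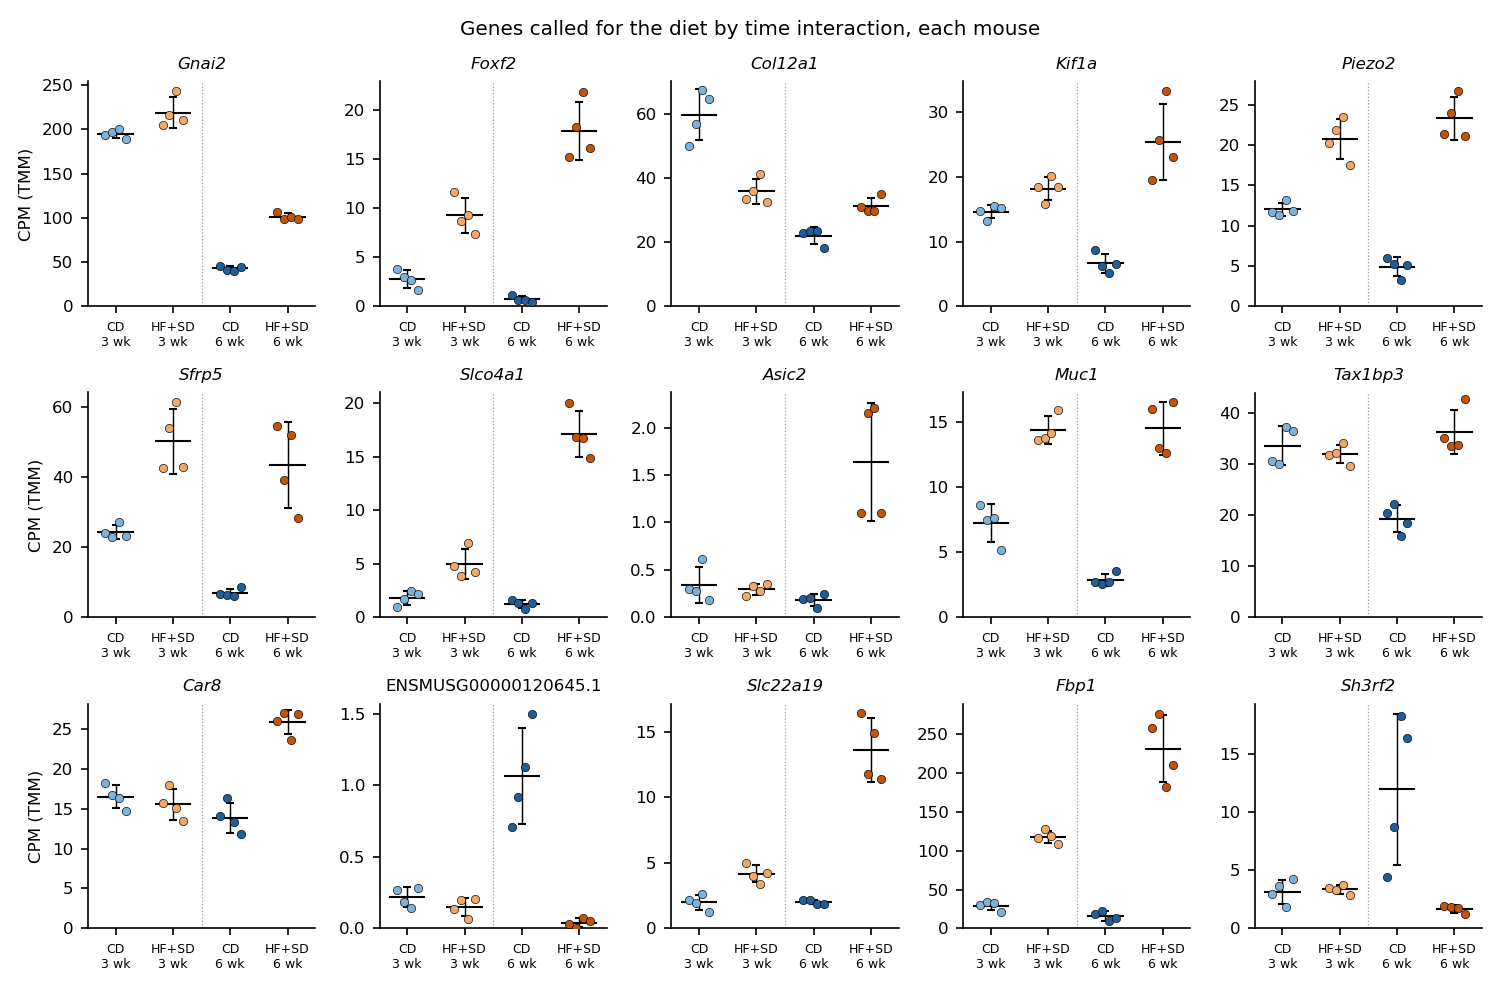
CPM of each mouse (points) for the 15 called genes, with the mean (horizontal bar) and SD (error bar, n = 4) of each group on axes from 0. In Col12a1 the HF+SD group lies below the CD group at 3 weeks and above it at 6 weeks, and in Gnai2 the 6-week groups lie at 40.5 to 45.2 and 98.6 to 107 CPM. A dotted line separates the time points, between which levels are not compared.

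All 15 called genes kept their direction and an unadjusted p under 0.05 both with the muscle covariate and without the 3 CD libraries, although only Gnai2 kept its call with the covariate and none kept it without those libraries. In that second fit 2890 of 20270 tested genes had an unadjusted p under 0.05 (14.3%, made up of 6.84% higher and 7.41% lower) and 0 had an adjusted p under 0.05 by edgeR. All 15 were also called by DESeq2, which called 1796 of 17815 genes with an adjusted p (10.1%, made up of 4.67% higher and 5.41% lower). Each of these fits reused counts from which the 15 genes had been selected. Scaling the libraries to 9 thyrocyte genes moved the median interaction of all genes from -0.05 to -0.50, and the values of the 13 higher genes moved down with it without changing sign. In that fit 8 of the 15 genes were called, and Gnai2 (0.62, adjusted p = 0.0948, edgeR), Col12a1, Sfrp5, Muc1, Tax1bp3, Car8 and Slc22a19 were not, with adjusted p-values of 0.0543 to 0.199. The lowest under that scaling were 0.52 for Tax1bp3 and 0.53 for Car8.

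**Figure D4:**
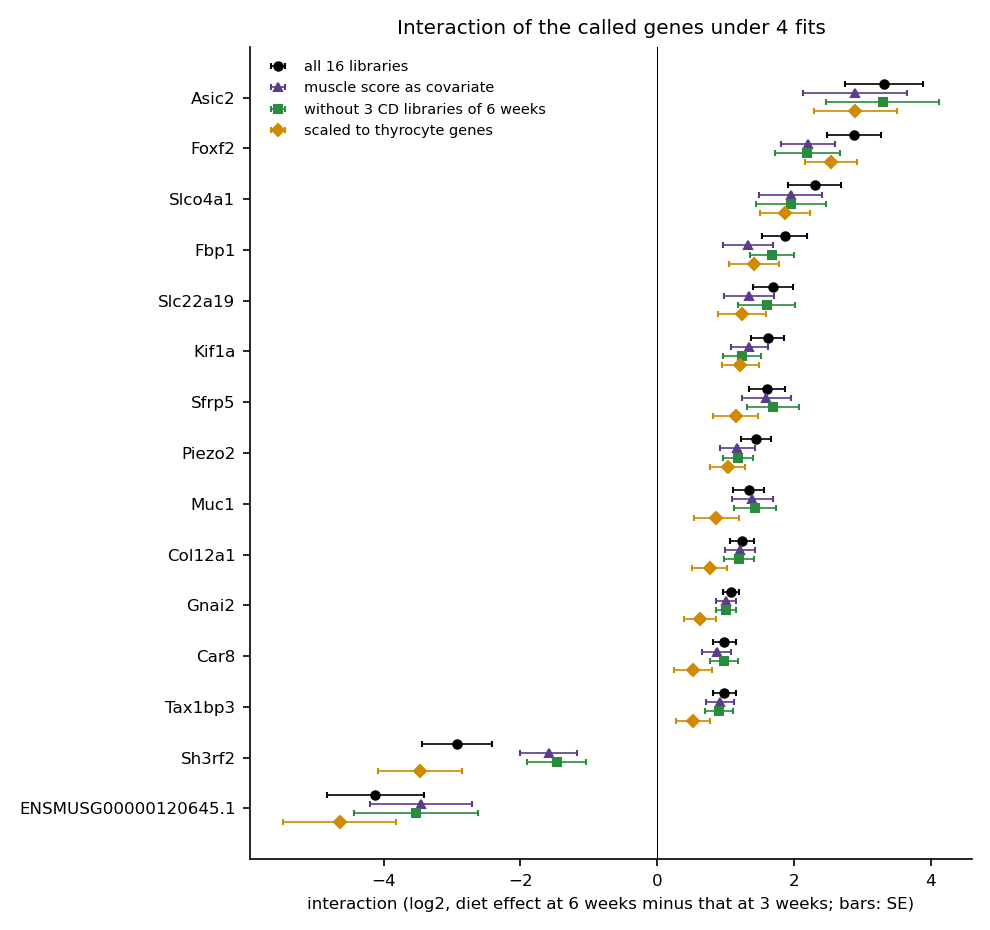
Interaction (log2, x axis) with its standard error (bars) for the 15 called genes in 4 fits, namely the full set of 16, the muscle covariate, without 3 CD libraries of 6 weeks, and scaling to thyrocyte genes. Every point lies on the same side of 0 as in the fit of all libraries, and Sh3rf2 moves from -2.93 to -1.47.

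The threshold divides a dense field of genes. The last called gene, Sh3rf2, had an adjusted p of 0.0451, and the next adjusted p, 0.0512, was shared by 54 genes. Between 0.05 and 0.10 there were 1590 genes, which makes 8.48% under 0.10, 3.31% higher and 5.17% lower. Just outside lay S1pr2, a sphingosine 1-phosphate receptor (interaction 1.30), Pvalb (-8.96), Rgs9, a regulator of G protein signalling (1.94), and Lama3, a laminin chain (1.12). A gene outside the 15 is therefore not shown to have the same diet effect at both times.

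Skeletal muscle genes showed the largest interactions. In the list, 38 of 39 tested genes were below 0 with a median of -5.95, 33 had an unadjusted p under 0.05, and none was called by edgeR, while DESeq2 called 33 and limma 0. Pvalb, the calcium buffer parvalbumin of fast fibres, measured 44.4, 1544, 11121 and 6498 CPM in the CD mice of 6 weeks and 188, 56.6, 72.6 and 117 CPM in the HF+SD mice. The lowest CD mouse, M22, lay below all HF+SD mice but none of M43, M45 and M48 did. Pvalb was also at 0.187, 0.0305, 0 and 0.435 CPM for CD and 2.81, 1.35, 1.53 and 2.05 CPM for HF+SD at 3 weeks. Its interaction was -8.96 (SE 1.61, adjusted p = 0.0512, edgeR), and -2.98 with the covariate (adjusted p = 0.0408), whose score includes Pvalb itself.

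Myh2, a fast myosin heavy chain, had 0.271, 453, 2634 and 1331 CPM for CD and 13.3, 8.15, 11.3 and 6.01 CPM for HF+SD at 6 weeks. M22 had less than any HF+SD mouse. The interaction of -8.90 (adjusted p = 0.1204, edgeR) became 0.10 with the covariate and 3.08 without the 3 CD libraries. Ckmt2, a mitochondrial creatine kinase of striated muscle, had 4.53, 228, 859 and 637 CPM for CD and 36.5, 3.47, 4.76 and 7.12 for HF+SD, an interaction of -7.73 (adjusted p = 0.0623, edgeR), and -1.15 without those libraries. With the covariate the median of the list was 0.10, and without the 3 libraries 0.91, where 33 of 39 genes were above 0. In bulk tissue, fewer cells of a type, less RNA per cell and less muscle dissected with the gland cannot be told apart. Which of these applied was not tested.

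The remaining genes are described by 43 lists of pathways and cell types. Only the collagen list held a gene called by edgeR, namely Col12a1. DESeq2 called a gene in 39 lists, to be read against the 10.1% of all genes that it called (4.67% higher and 5.41% lower). For limma it was 12 lists (101 of 18929 genes, 0.534%, made up of 0.502% higher and 0.0317% lower). For each list the median interaction is given beside the median of all tested genes, which was -0.05, and the count of members at an unadjusted p under 0.05 is read against 9.35% higher and 12.9% lower.

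**Figure D5:**
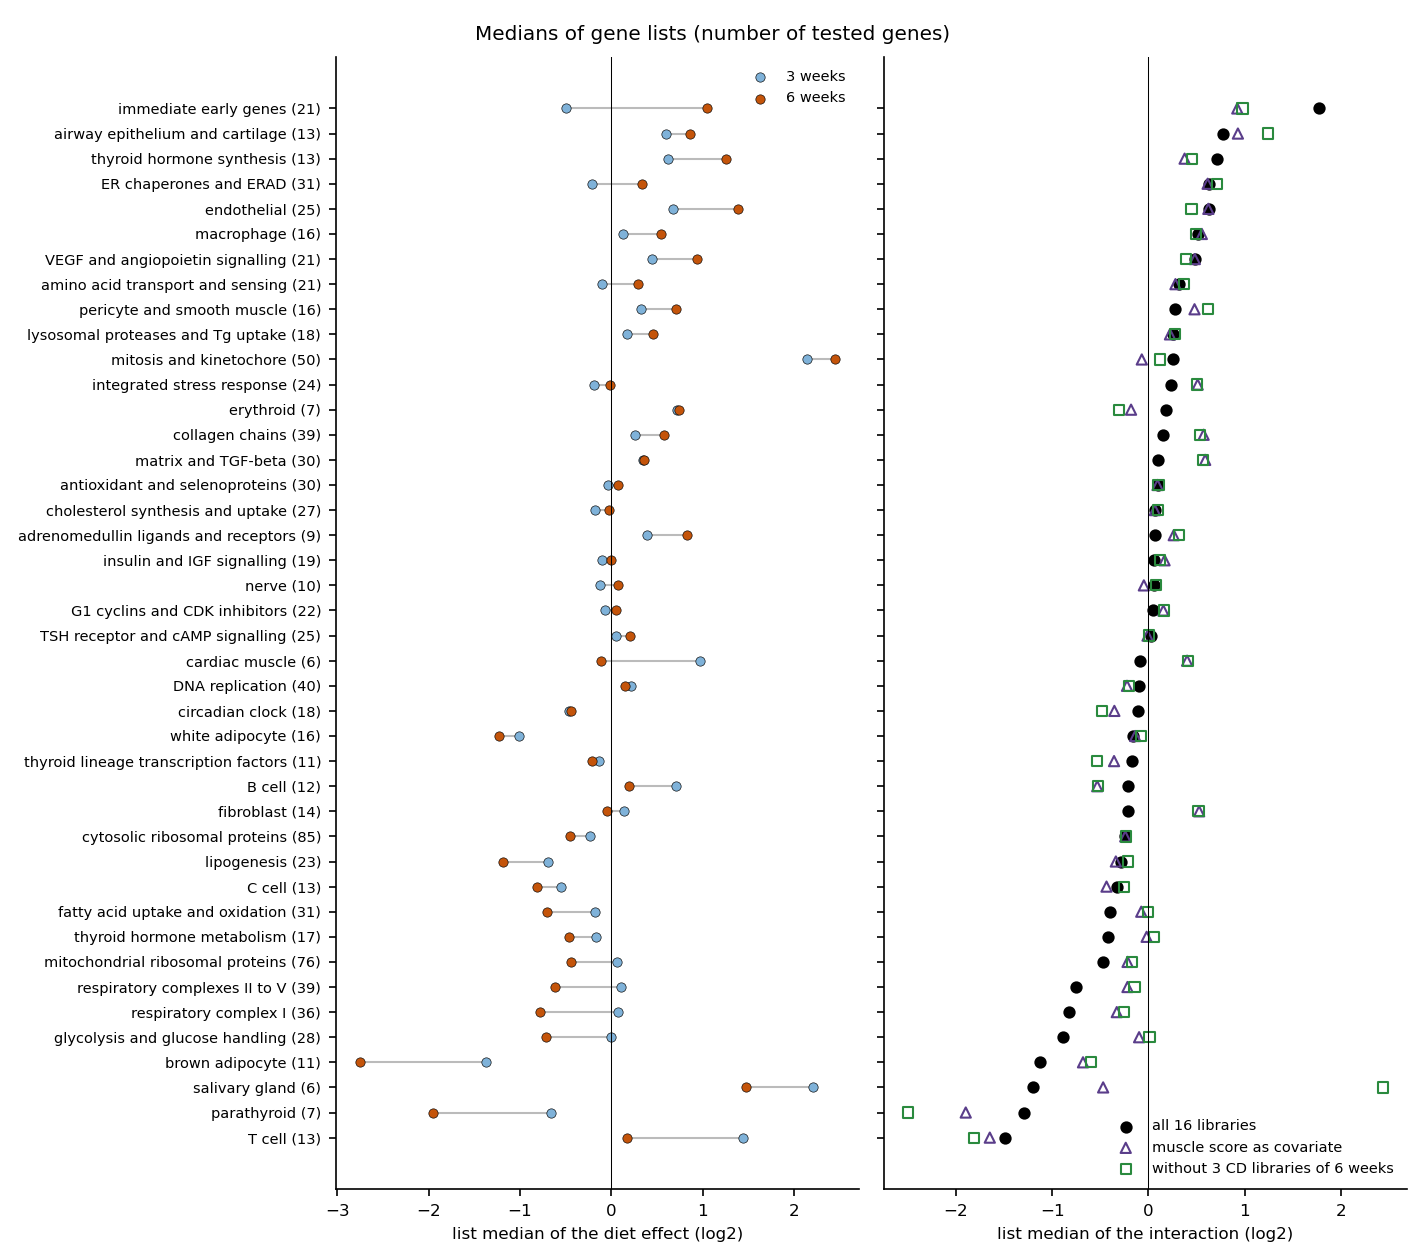
Medians of 42 gene lists, all but skeletal muscle, with the number of tested genes in brackets. The left panel gives the median log2 diet effect at 3 and at 6 weeks, and the right panel the median interaction from all 16 libraries, with the muscle covariate and without 3 CD libraries of 6 weeks. Immediate early genes lie highest at 1.77 and T cell genes lowest at -1.49, with respiratory complex I at -0.82.

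Thyroid hormone synthesis genes had larger diet effects at 6 weeks in most members, but none was called for the interaction by edgeR. Of 13 tested genes 12 had an interaction above 0, 5 of them at an unadjusted p under 0.05, and DESeq2 called 3, limma 0. The median diet effect was 0.62 at 3 weeks and 1.25 at 6 weeks, and the median interaction 0.72. With the muscle covariate it was 0.38, and with thyrocyte scaling 0.25, where the median of all genes was -0.50. Rescaling the libraries moves all genes together, so the distance of a list from all genes does not test its effect. Called at each time by edgeR in this list were 4 genes higher and 1 lower at 3 weeks (background 5.12% and 2.38%) and 9 higher and 1 lower at 6 weeks (14.5% and 18.2%).

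Tg itself took 11.31%, 7.582%, 4.725% and 6.398% of the counts in M22, M43, M45 and M48, and 9.526%, 13.63%, 9.997% and 11.66% in the HF+SD mice of 6 weeks. The diets overlapped at both times. Its interaction was 0.36 (SE 0.2702, adjusted p = 0.464, edgeR) and turned to -0.072 under thyrocyte scaling.

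Slc5a5, the sodium iodide symporter, had 327, 563, 452 and 86.2 CPM for CD and 1678, 2115, 1526 and 1975 for HF+SD at 3 weeks, and 303, 73.5, 63.999 and 147 and 464, 839, 885 and 979.9 at 6 weeks. The diets did not overlap at either time, and the ratio was 5.11 at 3 weeks and 5.39 at 6 weeks. Its interaction, 0.077 (SE 0.703, adjusted p = 0.964, edgeR), was -1.24 with the covariate and -0.22 to 0.72 over the fits without 1 mouse. Slc5a8, a monocarboxylate transporter of the apical membrane, was the list member with the lowest p. It had 157, 139, 166 and 129 CPM and 185, 182, 191 and 188 CPM at 3 weeks, and 76.8, 97.4, 48.04 and 53.7 and 194, 216, 201 and 137 CPM at 6 weeks in CD and then HF+SD mice. Its interaction was 1.10 (SE 0.271, adjusted p = 0.0616, edgeR), and the CD mice M45 and M48, which had most muscle counts, were the lowest of the 8 mice of 6 weeks. Duox2, the oxidase that supplies peroxide, had an interaction of -0.13 (SE 0.279, adjusted p = 0.834, edgeR). It was -0.60 with the covariate, -0.63 without the 3 CD libraries and -0.52 with thyrocyte scaling. Dio1, the type 1 deiodinase, had 0.57 (SE 0.243, adjusted p = 0.1799, edgeR). In the same 3 fits Dio1 had 0.10, 0.32 and 0.13.

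TSH receptor and cAMP signalling genes showed no common direction. The median interaction of 25 genes was 0.023, 2 genes were higher and 3 lower at an unadjusted p under 0.05, and edgeR called none, DESeq2 3 and limma 0. Tshr, the receptor, had an interaction of 0.59 (SE 0.463, adjusted p = 0.487, edgeR) on ratios of 2.198 at 3 weeks and 3.2998 at 6 weeks. Without the CD mouse M55, which had the highest Tshr of its group, the interaction was 0.081. Gnas, whose product is the stimulatory alpha subunit that couples this receptor to adenylyl cyclase, had 1125, 969, 1172 and 1084 CPM for CD and 848, 779, 909 and 986 for HF+SD at 3 weeks, with overlap. After 6 weeks it had 1203, 626, 1385 and 1227 and 458, 433, 367 and 598 CPM, with every HF+SD mouse below every CD mouse. Gnas fell at 6 weeks (log2 -1.26, adjusted p = 0.000374, edgeR), and its interaction of -0.96 (SE 0.290, adjusted p = 0.0799, edgeR) did not pass the test. With the covariate the interaction of Gnas was -0.88.

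Endothelial genes had a larger diet effect at 6 weeks in 22 of 25 members. Their median diet effect was 0.68 at 3 weeks and 1.38 at 6 weeks, with 13 and 19 members called higher (background 5.12% and 14.5%). The median interaction was 0.63, 0.62 with the covariate and 0.45 without the 3 CD libraries. With thyrocyte scaling it was 0.21, where the median of all genes was -0.50. At an unadjusted p under 0.05 12 members were higher and 1 lower, and edgeR called none, DESeq2 9 and limma 3.

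Pecam1, the junction protein CD31, measured 115, 106, 134 and 103 CPM for CD and 183, 174, 204 and 258 for HF+SD at 3 weeks, and 88.1, 93.01, 81.9 and 76.9 and 277, 292, 279.8 and 264 at 6 weeks. All HF+SD mice lay above all CD mice at both times. Among the CD mice of 6 weeks, M45 and M48, which had most muscle counts, had the lowest values. The part of muscle RNA in this result was not tested. The log2 diet effects were 0.84 and 1.71, and the interaction was 0.87 (SE 0.178, adjusted p = 0.0512, edgeR). Erg, a transcription factor of endothelial cells, had 9.72, 9.71, 9.04 and 10.2 CPM for CD and 20.8, 24.4, 21.6 and 23.1 for HF+SD at 6 weeks, and its interaction was 0.83 (SE 0.176, adjusted p = 0.0524, edgeR). Plvap, which forms the diaphragms of fenestrated capillaries, ranged from 19.2 to 32.9 CPM for CD and from 106 to 142 for HF+SD at 6 weeks, with an interaction of 1.27 (SE 0.284, adjusted p = 0.0592, edgeR). Prox1, the transcription factor of lymphatic endothelium, had the opposite sign (-0.52, SE 0.206, adjusted p = 0.152, edgeR).

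VEGF and angiopoietin genes drive and steady vessel growth. The list median interaction was 0.49, with 9 of 21 genes higher and 1 lower at an unadjusted p under 0.05. None was called by edgeR or limma, and DESeq2 called 8. Kdr, the main VEGF receptor of blood vessels, had an interaction of 0.82 (SE 0.2301), Flt4, the receptor for VEGF-C and VEGF-D, 0.90 (SE 0.239), and the co-receptor Nrp1 0.56 (SE 0.129), with edgeR adjusted p-values of 0.0696, 0.0639 and 0.0602. For Vegfb, a ligand, the value was -0.76 (SE 0.305, adjusted p = 0.154).

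Adrenomedullin 2 is a peptide that acts on vessels through the receptor Calcrl and its partner proteins. The median interaction of the 9 tested genes of this list was 0.070, with 2 higher and 2 lower at an unadjusted p under 0.05. For Calcrl the interaction was 0.69 (SE 0.252, adjusted p = 0.125, edgeR) and 1.10 with the covariate. Adm2, the ligand, had 12.6, 37.6, 13.5 and 4.79 CPM for CD and 252, 399.7, 342 and 436 for HF+SD at 3 weeks, and 9.36, 2.23, 3.16 and 4.29 and 112, 384, 277 and 306 at 6 weeks. The diets were far apart at both times, with ratios of 20.9 and 56.7, and the spread within groups was wide. The interaction was 1.44 (SE 0.751, adjusted p = 0.273, edgeR) and 0.058 with the muscle covariate, and leaving out 1 mouse gave 0.72 (without M54) to 2.02 (without M22). Ramp3, which pairs with the receptor Calcrl, had 11.03, 10.9, 13.2 and 7.27 and 21.7, 19.8, 25.4 and 28.7 CPM at 3 weeks, then 7.44, 4.29, 3.07 and 4.26 and 28.1, 31.2, 27.7 and 27.5 CPM at 6 weeks in CD and then HF+SD mice. Its HF+SD mice lay above its CD mice at both times. The interaction was 1.41 (SE 0.319, adjusted p = 0.0592, edgeR) and 0.77 with the covariate. Ramp1 had 2.69, 21.5, 136 and 76.98 CPM in the CD mice of 6 weeks, in the order of their muscle shares for the 3 highest, and an interaction of -4.66 that was -0.45 with the covariate.

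ER chaperones and degradation factors showed lower values for HF+SD at 3 weeks and higher ones at 6 weeks, on the median. The median diet effect was -0.21 at 3 weeks, where no member was called by edgeR, and 0.33 at 6 weeks, where 5 were called higher, a share close to the 14.5% of all genes. The interaction was above 0 in 29 of 31 genes with a median of 0.63. This median was 0.62 with the covariate and 0.71 without the 3 CD libraries. With thyrocyte scaling it was 0.11, where the median of all genes was -0.50. Without the mouse M5 the median was 0.33. At an unadjusted p under 0.05 9 genes were higher and none lower. With the covariate 3 were higher and 1 lower (background 5.38% and 5.48%). For the interaction edgeR called none, DESeq2 3 and limma 1.

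Os9, a lectin that delivers misfolded glycoproteins for degradation, had 408, 419.7, 472 and 392 CPM for CD and 499.9, 532, 508 and 553 for HF+SD at 3 weeks, and 130.3, 87.6, 87.2 and 113 and 203, 238, 219.6 and 208 at 6 weeks. The diets did not overlap at either time, and the interaction was 0.75 (SE 0.181, adjusted p = 0.0616, edgeR). Calr, the chaperone calreticulin, overlapped at 3 weeks (1696 to 3169 CPM for CD, 2384 to 2804 for HF+SD) and not at 6 weeks (1059 to 1281 and 2064 to 2416 CPM). Its interaction was 0.80 (SE 0.225, adjusted p = 0.0694, edgeR). Dnajb9, a cochaperone of BiP, was high in single mice, with 238, 254, 691 and 159.8 CPM for CD of 3 weeks and 379, 115, 95.96 and 97.2 for HF+SD of 6 weeks, where M55 and M5 stand apart. Its interaction was 1.86 (SE 0.693, adjusted p = 0.132, edgeR). The mean log2 CPM of the whole list showed the same mice, with 8.41, 8.32, 8.94 and 7.77 for CD of 3 weeks and 8.43, 7.55, 7.54 and 7.67 for HF+SD of 6 weeks. Hspa5, which encodes BiP, had an interaction of 1.38 (SE 0.613, adjusted p = 0.196, edgeR).

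Immediate early genes, which encode transcription factors and phosphatases induced within minutes by many stimuli, had the highest list median. All 21 tested members had an interaction above 0, with a median of 1.77 and 11 at an unadjusted p under 0.05, and the set was not tested as a set. None was called by edgeR, 3 by DESeq2 and 1 by limma. The median diet effect was -0.50 at 3 weeks and 1.05 at 6 weeks. With the muscle covariate the median interaction was 0.92, without the 3 CD libraries 0.98, and with thyrocyte scaling 1.57. The 11 genes at an unadjusted p under 0.05 became 3 with the covariate (background 5.38%) and 1 without the 3 CD libraries (6.84%), where 17 of 21 were above 0.

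These genes varied widely between mice of a group. Averaged over the list, log2 CPM was 5.30, 5.27, 5.31 and 5.32 in the CD mice of 3 weeks and 3.80, 4.41, 5.53 and 5.24 in the HF+SD mice. At 6 weeks it was 4.51, 2.84, 3.01 and 3.63 for CD and 4.99, 5.27, 4.45 and 3.28 for HF+SD. M7 and M19y were low among the HF+SD mice of 3 weeks, M35 was low among those of 6 weeks, and the CD mice M22 and M48 lay within the HF+SD range of 6 weeks. Jund had the lowest p, with 328, 441, 436 and 498 and 244, 323, 325 and 446 CPM at 3 weeks and 57.5, 35.3, 36.1 and 47.96 and 119, 113, 94.9 and 73.5 CPM at 6 weeks in CD and then HF+SD mice. The groups of Jund overlapped at 3 weeks only, and its interaction was 1.53 (SE 0.296, adjusted p = 0.0512, edgeR). Dusp1, a phosphatase of MAP kinases, had 135, 202, 84.5 and 144 CPM for CD and 36.1, 74.5, 232 and 151 for HF+SD at 3 weeks, and 81.3, 20.2, 29.3 and 45.3 and 156, 237, 204 and 36.3 at 6 weeks. Its groups overlapped at both times, and the interaction was 2.04 (SE 0.823, adjusted p = 0.156, edgeR). Fos had 6.04, 52.2, 274 and 165 CPM for HF+SD of 3 weeks and 80.7, 181, 120.2 and 3.13 on that of 6 weeks, and its interaction was 0.96 (SE 1.54, adjusted p = 0.759, edgeR).

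Many immediate early genes are known targets of cAMP signalling, the pathway on which TSH acts, so their promoters are shown with matches to the cAMP response element. The windows are the 250 bases before the RefSeq start of each gene in GRCm38.p6, and both strands were searched for the full element TGACGTCA and for its core TGACG, which the full element contains. Of 16 immediate early genes with a window, 10 held the core (62.5%) and 3 the full element (18.8%), against 5347 (19.8%) and 478 (1.77%) of 27025 genes. Of 9 called genes with a window, 2 held the core (22.2%), Kif1a and Sfrp5, and 0 the full element. Matches on the strand shown are in capitals for Dusp1 and Fos, as members with several matches, and for Sfrp5, as a called gene. They lie at chr17:26508473-26508722 (minus strand), chr12:85473640-85473889 (plus strand) and chr19:42202253-42202502 (minus strand).
Dusp1: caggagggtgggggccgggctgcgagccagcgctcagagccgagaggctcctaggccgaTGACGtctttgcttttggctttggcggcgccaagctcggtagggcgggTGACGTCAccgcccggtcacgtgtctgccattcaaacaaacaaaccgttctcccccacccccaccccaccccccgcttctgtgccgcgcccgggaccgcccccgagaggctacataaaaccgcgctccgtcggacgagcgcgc
Fos: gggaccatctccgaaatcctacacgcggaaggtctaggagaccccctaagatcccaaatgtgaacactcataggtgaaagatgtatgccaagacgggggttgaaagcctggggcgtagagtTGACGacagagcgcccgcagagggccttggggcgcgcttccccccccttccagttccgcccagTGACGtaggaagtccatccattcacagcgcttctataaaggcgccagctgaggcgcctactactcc
Sfrp5: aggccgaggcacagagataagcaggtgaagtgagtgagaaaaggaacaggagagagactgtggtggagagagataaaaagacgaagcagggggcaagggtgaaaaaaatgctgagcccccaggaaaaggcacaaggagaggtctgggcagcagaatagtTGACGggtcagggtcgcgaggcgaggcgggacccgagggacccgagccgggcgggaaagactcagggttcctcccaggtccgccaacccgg
A match describes these letters only and is neither a bound site nor a cause of the values above.

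Genes of mitochondrial respiration had lower ratios at 6 weeks. In complex I, 0 of 36 genes had an interaction above 0, the median was -0.82, and 34 were lower at an unadjusted p under 0.05. At 3 weeks edgeR called none of them by diet (median 0.074, background 5.12% higher and 2.38% lower). At 6 weeks it called 34 lower (median -0.78, background 18.2%). For the interaction edgeR and limma called none and DESeq2 24. With the covariate the median was -0.33, with 5 genes lower at an unadjusted p under 0.05 (background 5.48%), and without the 3 CD libraries it was -0.26, with 12 (7.41%). Ndufs8, an iron-sulphur subunit, had 63.4, 71.9, 67.2 and 62.01 CPM for CD and 70.5, 73.5, 68.8 and 64.8 for HF+SD at 3 weeks, and 131, 152, 221 and 199.6 and 105, 106, 100.5 and 108 at 6 weeks. At 6 weeks the CD mice were ordered as their muscle shares were, and M22 was still above every HF+SD mouse. Its interaction was -0.82 (SE 0.187, adjusted p = 0.0602, edgeR) and -0.46 with the covariate. The nuclear subunits of complexes II to V had a median of -0.75 and mitochondrial ribosomal proteins -0.47, which with the covariate were -0.22 and -0.22. The muscle shares of the CD libraries move with these values, and their part in the result was not tested.

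Cytosolic ribosomal protein genes moved less but kept their value. Their median interaction was -0.24, -0.24 with the covariate and -0.23 without the 3 CD libraries. In 11 of 85 genes the interaction was above 0, and 38 were lower at an unadjusted p under 0.05, while edgeR and limma called none and DESeq2 23. Diet effects were called lower by edgeR for 8 genes at 3 weeks and for 67 at 6 weeks (background 2.38% and 18.2%). The median diet effects were -0.23 and -0.46. Rpl38, a large subunit protein, had 101, 94.2, 96.4 and 93.3 and 92.4, 83.1, 83.6 and 78.3 CPM at 3 weeks and 208, 190.3, 191 and 186 and 128, 126, 120.0 and 129 CPM at 6 weeks in CD and then HF+SD mice. The diets did not overlap at either time, M22 was the highest CD mouse of 6 weeks, and the interaction was -0.43 (SE 0.115, adjusted p = 0.0642, edgeR).

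Matrix gene lists had higher medians with the muscle covariate. The median interaction of the 39 collagen genes was 0.15, and 0.57 with the covariate. In the covariate fit 14 were higher and 3 lower at an unadjusted p under 0.05 (background 5.38% and 5.48%). Leaving out 1 mouse moved the collagen median between 0.025 (without M22) and 0.28 (without M48). The matrix and TGF-beta list went from 0.10 to 0.59. The fibroblast marker list moved with them, from -0.21 with 3 of 14 genes above 0 to 0.53 with 14 of 14, and its part in these medians was not tested. Beside Col12a1, Col8a1, a short-chain collagen of vessel walls, had 8.06, 11.96, 9.36 and 8.22 CPM for CD and 17.3, 19.1, 19.3 and 12.9 for HF+SD at 6 weeks, with overlapping values of 16.3 to 17.8 and 13.7 to 19.7 CPM at 3 weeks. Its interaction was 0.94 (SE 0.223, adjusted p = 0.0602, edgeR). Tgfb1, the cytokine TGF-beta 1, had 26.5, 19.1, 27.8 and 19.7 and 27.8, 24.6, 27.4 and 30.9 CPM at 3 weeks and 3.26, 2.49, 3.32 and 3.57 and 12.8, 8.24, 7.15 and 8.97 CPM at 6 weeks in CD and then HF+SD mice. At 6 weeks all HF+SD mice exceeded all CD mice, and the interaction was 1.31 (SE 0.257, adjusted p = 0.0512, edgeR).

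Mitosis genes were called higher by diet at both times in most members, and DNA replication genes in fewer of theirs. Of 50 mitosis genes edgeR called 43 higher at 3 weeks and 45 at 6 weeks (background 5.12% and 14.5%). Their median diet effects were 2.14 and 2.44. The median interaction was 0.25, and -0.068 with the covariate, and it ranged from 0.0074 without M53 to 0.42 without M5. Of 40 DNA replication genes 10 were called higher at each time, against the same background. Called lower were 0 at 3 weeks and 2 at 6 weeks (background 2.38% and 18.2%). The median interaction of these 40 genes was -0.094. Of the mitosis genes 4 were higher and 2 lower at an unadjusted p under 0.05, edgeR and limma called none, and DESeq2 called 1 higher and 1 lower. Cenpe, a kinetochore motor, had an interaction of 1.17 (SE 0.332, adjusted p = 0.0699, edgeR).

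Glycolysis and fatty acid oxidation lists had medians nearer 0 with the muscle covariate, and lipogenesis did not. The median interaction was -0.89 for glycolysis, -0.40 for fatty acid uptake and oxidation and -0.28 for lipogenesis. With the covariate these were -0.10, -0.073 and -0.34. Mlxipl, the carbohydrate response factor ChREBP, had 23.1, 24.7, 24.7 and 32.99 and 8.68, 8.46, 8.09 and 5.52 CPM at 3 weeks and 30.8, 31.7, 51.2 and 37.6 and 4.998, 4.88, 3.96 and 4.94 CPM at 6 weeks in CD and then HF+SD mice. It fell at both times, without overlap, and its interaction was -1.23 (SE 0.258, adjusted p = 0.0524, edgeR) and -0.86 with the covariate. Brown adipocyte genes had a median diet effect of -1.37 at 3 weeks and -2.75 at 6 weeks. Their median interaction was -1.12, -0.68 with the covariate and -1.70 without M18. The defining gene Ucp1 averaged 124.7 CPM for CD and 29.4 for HF+SD at 3 weeks and 266 and 24.7 at 6 weeks, and its interaction was -1.34 (SE 0.911, adjusted p = 0.4101, edgeR).

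Macrophage and T cell lists had median interactions of opposite sign, but the sign of the T cell list rested on 1 mouse, M7. The median of 16 macrophage genes was 0.52 and 0.56 with the covariate, with 6 higher and none lower at an unadjusted p under 0.05. By diet, edgeR called no macrophage gene at 3 weeks and 9 higher at 6 weeks, against 5.12% and 14.5% of all genes called higher. For the interaction edgeR called none, DESeq2 3 and limma 1. Csf1r, the receptor for macrophage colony-stimulating factor, had 34.1, 31.4, 29.2 and 30.1 CPM for CD and 39.6, 30.04, 29.9 and 28.8 for HF+SD at 3 weeks, and 18.8, 20.9, 25.6 and 21.5 and 38.7, 38.8, 34.6 and 43.6 at 6 weeks. The groups overlapped at 3 weeks and not at 6 weeks, and the interaction was 0.80 (SE 0.173, adjusted p = 0.0539, edgeR).

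T cell genes had a median interaction of -1.49, from diet effects of 1.44 at 3 weeks and 0.17 at 6 weeks. At 3 weeks a single HF+SD mouse, M7, stood apart from the other 7 mice. Averaged over the list, log2 CPM was 2.03, -0.62, -0.74 and -1.03 in the HF+SD mice M7, M19y, M20y and M31, and -0.69, -0.53, -1.05 and -0.82 in the CD mice. Trbc2, a T cell receptor constant chain, had 14.9, 0.442, 0.307 and 0.205 CPM in those HF+SD mice, and its interaction of -3.53 (SE 1.48, adjusted p = 0.172, edgeR) has that mouse as its high value. Without M7 the list median was 0.14, and without any other single mouse it stayed below 0. Parathyroid genes had a median of -1.29, or -0.41 without M22, with none called by edgeR, DESeq2 or limma and none at an unadjusted p under 0.05. The mean log2 CPM of that list ran from 2.01 in M19y to 7.52 in M22.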

How the data were processed

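RNA of whole thyroid from 16 mice, 4 per group, was sequenced by the authors as paired reads of 150 bases. The authors deposited 2 tables of the same genes and 16 libraries, raw read counts per gene and a normalized signal, which is the count divided by a size factor of the library. Tests used the counts, and the signal served limma only. The submitters' processing notes name Trim Galore 0.6.7, STAR, DESeq2 1.36.0, R 4.1.0 and the mm39 build. Their settings were not stated in what was read. Depth was 30025256 to 48508653 counts per library, and intervals on shares cover counting error only.

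Counts of 21640 genes (20841 with a symbol in the name table) were filtered by edgeR's filterByExpr to 18929, scaled by TMM and fitted with edgeR 4.0.16 (quasi-likelihood, R 4.3.3) as 4 group means. The contrast was the HF+SD minus CD difference at 6 weeks less that at 3 weeks, on the log2 scale, and p-values were Benjamini-Hochberg adjusted over all tested genes and called under 0.05. Standard errors were derived from the effect and its F statistic. The muscle score was the mean log2 CPM (prior count 2) of the skeletal muscle list. Alternatives were DESeq2 1.42.0, limma 3.58.1 on log2 of the deposited signal plus 1, other scalings and filters, and leaving out mice. The scripts were tested on simulated data. Replicates of a group differed by more than counting noise (chi-square per gene of 15.1 to 870.7, genes of at least 20 counts), so none was merged. The sources name separate mice, and the study's text gives a smaller number of 6-week CD mice than the 4 libraries deposited.

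Genes named were those called that kept their call with the muscle covariate, the 3 lowest muscle genes, up to 2 called members of each process list, genes called in opposite directions by diet, 7 fixed thyroid and vessel genes, and 1 called member of each tissue list. The rule named 12 of the genes with full statistics, and others are marked in the text. A further gene that the rule fixed is not reported here. The members and lists were chosen with earlier results of these data known. Promoter windows came from RefSeq for GRCm38.p6, another build than the files', and serve for sequence only.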

Additional observations from a re-analysis of the deposited data

Results flagged for a closer look

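A value far from the other 3 mice of its group, by Dixon's test at the 95% level, was found in 7 of 100 groups, and chance flags about 1 in 20 groups. In the CD mice of 6 weeks these were all M48, with 18.1 CPM of Col12a1, 8.56 CPM of Sfrp5 and 3.57 CPM of Muc1. In the HF+SD mice of 6 weeks they were M5 with 42.6 CPM of Tax1bp3 and 36.5 CPM of Ckmt2, and M18 with 31.2 CPM of Ramp3. The last was 0.282 CPM of Ckmt2 in the CD mouse M96 of 3 weeks.

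The diet effects of 3 and 6 weeks differed by edgeR's test of the difference itself, on the log2 scale, by 1.08 in Gnai2, 1.24 in Col12a1, 1.62 in Kif1a, 0.98 in Car8, 0.98 in Tax1bp3 and 3.32 in Asic2. They differed by 2.88 in Foxf2, 1.86 in Fbp1, 1.45 in Piezo2, 1.61 in Sfrp5, 2.30 in Slco4a1, 1.70 in Slc22a19 and 1.34 in Muc1. The 2 lower values were -2.93 in Sh3rf2 and -4.12 in ENSMUSG00000120645.1. Library project changes with time in every one of these differences, and the 2 cannot be told apart.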

How the results depend on the processing

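The count of genes called for the interaction depended on the processing far more than the direction of the 15 genes, none of which reversed under any alternative run. These genes were selected from the same counts for their large interactions, so an unchanged direction is not independent support for them. Against 15 calls, DESeq2's size factors in edgeR gave 92, upper-quartile factors 168, thyrocyte scaling 579 (18 higher), a minimum of 10 counts in every library 150, the DESeq2 test 1796 and limma 101. The muscle covariate gave 2, leaving out the 3 CD libraries 0 (2890 at an unadjusted p under 0.05), and a test against a log2 difference of 1 gave 0. Alternatives chosen after seeing the data gave 1605 at an adjusted p under 0.10, 4217 at an unadjusted p under 0.05, and 0 with muscle score and thyrocyte scaling together, for either count. Leaving out 1 mouse gave 1 to 2715 calls. Fitting each time point alone gave 2560 diet calls at 3 weeks and 3927 at 6 weeks. The cause of these shifts was not tested.

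Of the 25 genes with full statistics, 4 reversed, none of them called, and other list members were not counted here. Myh2 was 0.10 with the covariate, 3.08 without the 3 CD libraries and 0.18 with muscle score and thyrocyte scaling. Tg was -0.072 under thyrocyte scaling, and Duox2, at -0.13, ranged from -0.27 to 0.11 over the fits without 1 mouse, highest without M22. Slc5a5 was -0.19 with thyrocyte scaling, -1.24 with the covariate, -0.96 without the 3 CD libraries, -1.13 with both corrections, and -0.14, -0.17, -0.022, -0.22 and -0.047 without M43, M45, M35, M54 and M55. Over all fits without 1 mouse it ranged from -0.22 to 0.72. No paired analysis was possible because replicate numbers were given in accession order and name no shared animal, litter or batch.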
